A study of Mus musculus with 65 samples.

Results

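The 4 mouse Hox clusters were examined for peaks of CTCF and TAL1, 2 DNA-binding proteins mapped by ChIP-seq in blood cells. The members were the 39 protein-coding genes whose GENCODE symbol is Hoxa, Hoxb, Hoxc or Hoxd followed by a number, of 21951 protein-coding genes in the annotation. Around them, every peak from 100 kb before the first to 100 kb after the last gene of a cluster was taken, in windows of 1292 kb in all. HoxA (11 genes) lies at chr6:52155590-52260880, HoxB (10 genes) at chr11:96194316-96368256, HoxC (9 genes) at chr15:102921103-103036852 and HoxD (9 genes) at chr2:74668310-74765142, all in mm10 (GRCm38). The windows held 54 of 66618 merged CTCF sites and 6 of 13153 merged TAL1 sites, where a merged site is an interval over which peaks of different libraries shared at least 1 bp.

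Hox genes encode homeodomain transcription factors, and within a cluster they stand in the order in which they are used along the body axis, from group 1 at the anterior end to group 13 at the posterior end. In blood, genes of the middle and posterior HoxA cluster and of the HoxB cluster are known to be active in stem and progenitor cells and to be turned down as cells mature. CTCF is a zinc finger protein that binds a long, oriented DNA motif, anchors chromatin loops, and at Hox clusters is known to mark borders between active and silenced genes. TAL1, needed for blood formation, carries a basic helix-loop-helix domain and often sits on DNA in 1 complex with GATA1.

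The 53 peak lists fell into groups by factor, cells and the study's quality assessment. G1E-ER4+E2 is a mouse erythroid line derived from embryonic stem cells that lacks GATA1 and carries a GATA1 fusion protein which estradiol activates, and all line cells had received estradiol for 24 h and thus share this genotype and treatment. CTCF was mapped in 23 line libraries, assessed Pass (14), Low pass (2) or Fail (7), and in 11 libraries of cells sorted from the bone marrow of male C57BL/6 mice aged 5 to 8 weeks. The sorted cells were LSK stem and progenitor cells (2 libraries), CMP (1), GMP (1), MEP (1), megakaryocyte progenitors CFUMk (1), immature megakaryocytes iMK (2), erythroid progenitors CFUE (1) and erythroblasts ERY (2). The CMP and GMP libraries were assessed Low pass and the other 9 primary libraries Pass. TAL1 was mapped in the line alone, in 10 Pass, 4 Low pass and 5 Fail libraries. Because the lists hold peaks and no expression, the identity of the sorted cells could not be checked against marker genes. The line libraries were not plain replicates, since the study varied sonication and the number of cells among many of them. The mean length of their sheared chromatin, where measured, ran from 166 bp (TAL1 Fail replicate 2) to 329 bp (CTCF Fail replicate 4). Nothing in the labels says which libraries came from separate cultures or mice. The p-values therefore measure the spread between these libraries, which may be technical. The assessment was made by the study from signal tracks at known loci and is not independent of the peak lists.

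Peak lists give no read depth. Line Pass lists held 10655 to 21986 CTCF peaks, those of LSK, CMP, GMP, MEP, CFUMk and iMK (8 libraries, the other primary cells below) 15002 to 36481, CFUE 11990, and ERY 8284 and 6629. The strength of a peak was therefore given as its rank percentile, the percent of peaks in its own list that its −log10 p exceeds or equals, where 100 is the strongest. Of the 10 TAL1 Pass libraries, replicate 10 carried an antibody label naming CTCF. In that library 97.7% of peaks lay at peaks of the other TAL1 Pass libraries and 4.44% at CTCF sites of the line, within the ranges of the other 9 (85.0% to 99.6% and 4.11% to 4.95%), and its title, TAL1, was used.

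A CTCF site was called recurrent when at least 50% of the 14 line Pass libraries (a line site) or at least 50% of the 11 primary libraries (a primary site) had a peak there. The Hox windows held 26 recurrent sites, of which 17 lay between the first and last gene of a cluster: 3 in HoxA, 8 in HoxB, 3 in HoxC and 3 in HoxD. Their sequences show what the protein could bind. A 19-base CTCF motif learned from peaks outside the Hox windows read NNGCCACNAGGGGGCGCNN, where N marks a position without a dominant base. It was searched on both strands at a p of 0.0001 per position. The best match of the sites on which the comparisons below turn is printed 5′ to 3′ on the strand of the match, from the mm10 sequence, with the 19 matched bases in capitals and 5 bases on each side. The first pair lies in sites that had a peak in 8 primary libraries and in no line Pass library.
Hoxa10–Hoxa11, chr6:52240532-52240560, minus strand, in a noncoding part of a Hoxa10 exon: cgcagCCGCCACGAGATGGCGCACtcccg
Hoxb6–Hoxb5, chr11:96303237-96303265, plus strand, in an intron of Hoxb5os and before the Hoxb5 start: gtcaaTCGCCGGGAGGTGGCGCGCtctgc
The next lies in the single Hox site with a peak in all 11 primary libraries.
Hoxa7–Hoxa9, chr6:52221800-52221828, minus strand, in a Hoxa7 intron: agaaaATTCCAGGAGATGGCAGTGtggct
The following 5 lie in sites shared between the line and the other primary cells.
Hoxb13–Hoxb9, chr11:96235097-96235125, minus strand, intergenic: tctcgCGGCCGGCAGGGGTCACTGtgtgg
Hoxc11–Hoxc10, chr15:102966564-102966592, plus strand, before the Hoxc10 start: cgaggCAGCTGCTAGGTGGCGCTGttact
Hoxc9–Hoxc8, chr15:102987585-102987613, plus strand, in an intron of a long Hoxc5 transcript: acaagTGAACGCGAGGTGGCGCTGttgct
Hoxd9–Hoxd8, chr2:74702387-74702415, plus strand, intergenic: gcattTGGCCACTAGAGAGCGCTGttgct
Hoxd8–Hoxd4, chr2:74715913-74715941, plus strand, in an exon of the noncoding Hoxd3os1: agcttTGTCCAGGAGGAGGCGCTGtagga

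A match was found in 22 of the 26 recurrent Hox sites (84.6%, 95% Wilson interval 66.5% to 93.8%), against 18150 of 18967 recurrent sites elsewhere (95.7%). In windows of the same length 10 kb away the share was 30.8% for the Hox sites and 28.2% for the others. All 17 line sites in the Hox windows held a match, beside 96.7% of line sites elsewhere. Of the 9 Hox sites that were primary but not line sites, 5 held a match (55.6%, against 93.0% of the 5046 such sites elsewhere). The 4 without one were the sites between Hoxa6 and Hoxa7, between Hoxb5 and Hoxb4, after Hoxa13 and just before Hoxd13, where these letters are absent from the peak interval and nothing more can be read from that. Matches of the 17 sites inside the clusters were on the plus strand in 7 and on the minus strand in 8. By cluster, HoxA had 2 on the minus strand, HoxB 2 on the plus and 5 on the minus strand, HoxC 3 on the plus strand, and HoxD 2 on the plus and 1 on the minus strand.

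**Figure D1:**
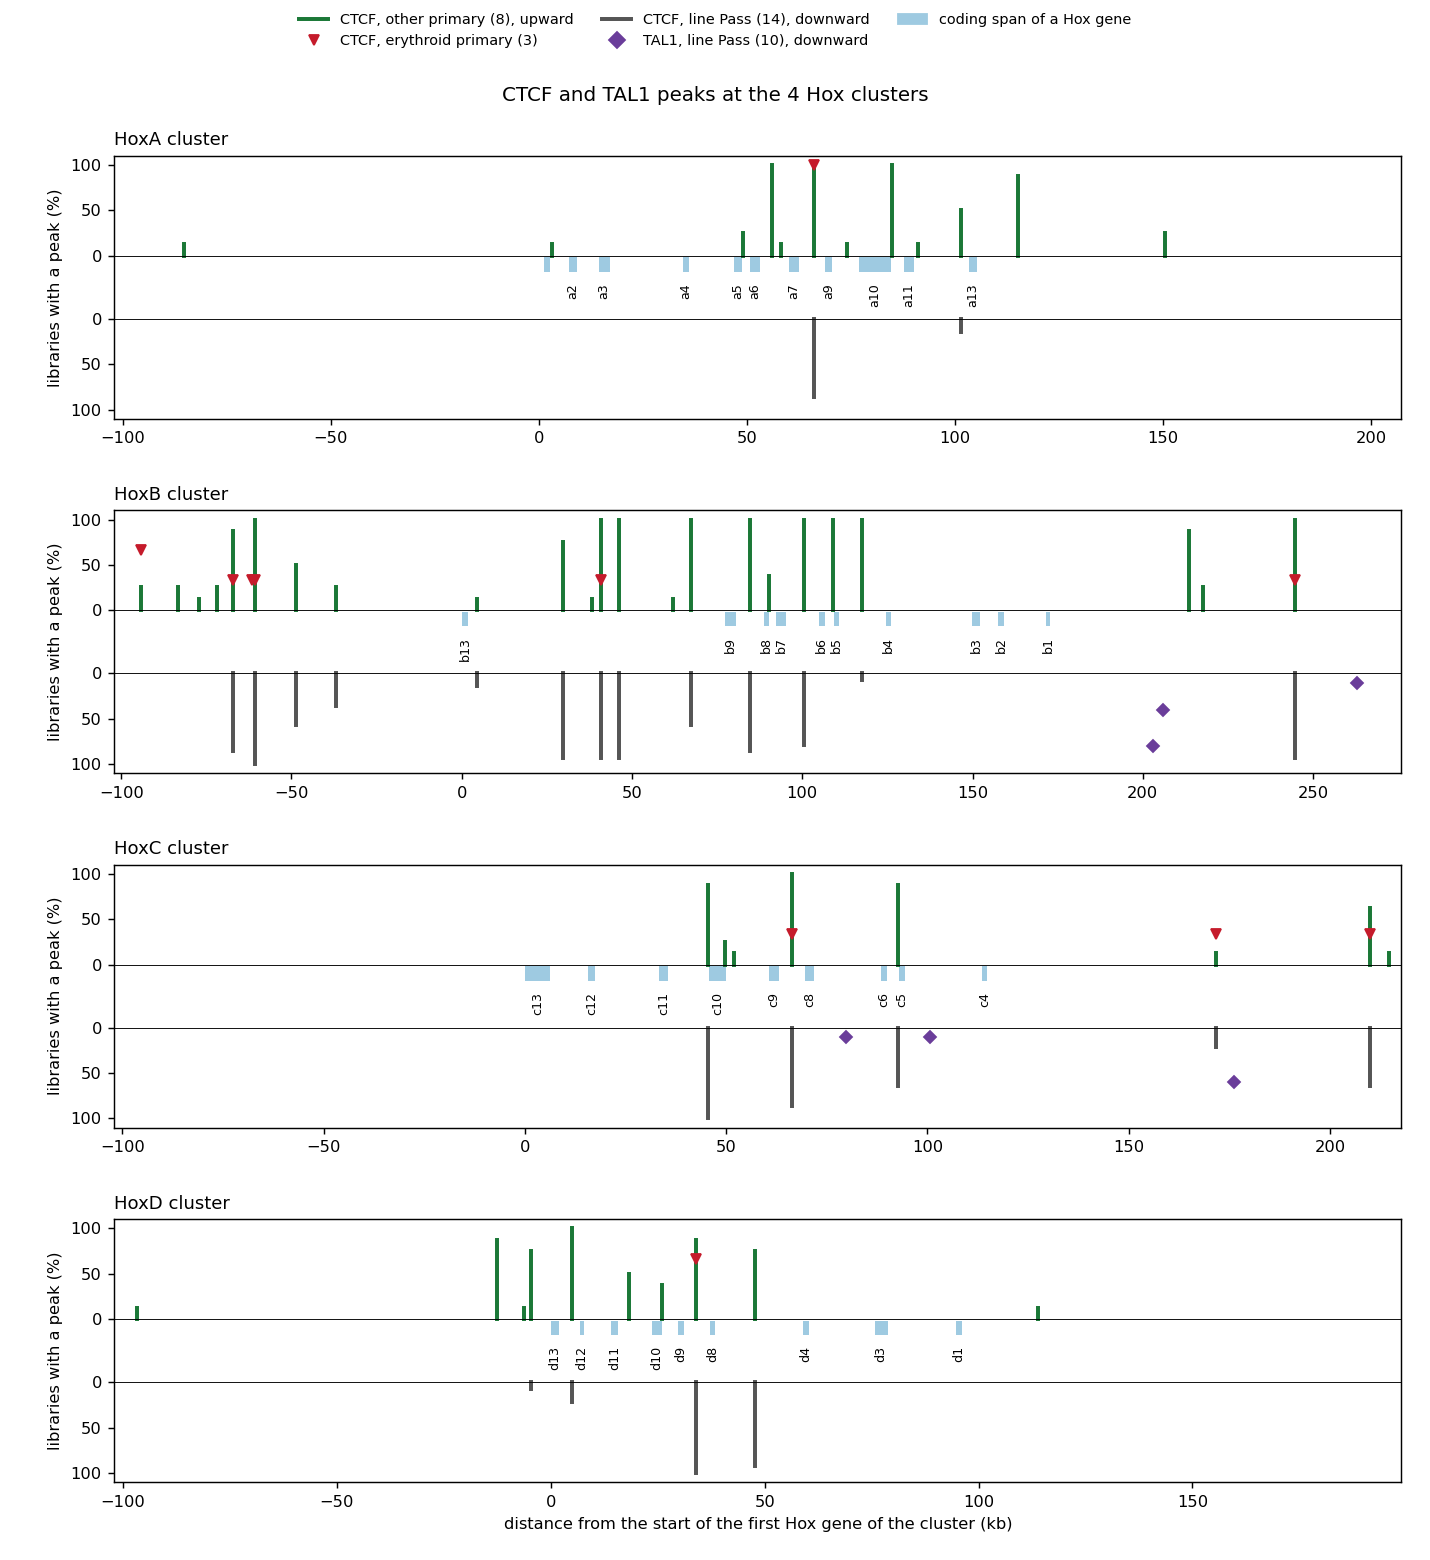
CTCF and TAL1 sites along the 4 Hox clusters, 1 panel each, with distance from the start of the first gene in kb on the x axis and percent of libraries with a peak on the y axis. Green bars upward stand for the 8 other primary libraries, red triangles for the 3 erythroid primary libraries, grey bars downward for the 14 line Pass libraries, purple diamonds for the 10 TAL1 Pass libraries and blue boxes for coding spans, most of them labelled. The stretch without a recurrent site is longer at the anterior than at the posterior end in HoxA, HoxB and HoxD, and shorter in HoxC.

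Each cluster had a stretch without a recurrent CTCF site at both ends, the anterior one being the longer in HoxA, HoxB and HoxD but not in HoxC. These lengths were not set beside the spacing of recurrent sites elsewhere, so they are a description. No recurrent site lay in the first 55.7 kb of HoxA (52.9% of the cluster), which takes in the coding sequences of Hoxa2 to Hoxa6. The corresponding stretch was 56.0 kb in HoxB (32.2%, Hoxb1 to Hoxb4), 22.7 kb in HoxC (19.6%, Hoxc4) and 48.6 kb in HoxD (50.2%, Hoxd1, Hoxd3 and Hoxd4). In HoxA 2 rarer sites, with peaks in 1 and 2 of the 25 line Pass and primary libraries, fell inside it, and in the other 3 clusters no CTCF site of any frequency did. At the posterior end the stretch was 19.9 kb in HoxA (18.9%, Hoxa11 and Hoxa13), 29.2 kb in HoxB (16.8%, Hoxb13), 45 kb in HoxC (38.9%, Hoxc11 to Hoxc13) and 4.38 kb in HoxD (4.52%, Hoxd13). It held 2 rarer sites in HoxA and 1 in HoxB. Counted by gene, 7 of the 39 had no CTCF peak in or within 10 kb of the gene in any of these 25 libraries: Hoxa4, Hoxb1, Hoxb2, Hoxb3, Hoxc12, Hoxc13 and Hoxd1. How many of all protein-coding genes had none was not counted, so nothing is read from this number. A peak within that reach was found in at least 50% of line Pass libraries for 21 of the 39 Hox genes and in at least 50% of primary libraries for 29 of 39, beside 44.1% and 50.8% of all protein-coding genes. The share of Hox promoters with a recurrent site was near that of other genes. Within 1 kb of a transcript start, line sites were found for 2 of 39 genes (5.13%, Hoxc10 and Hoxc5) against 7.42% of other genes, and primary sites for 5 of 39 (12.8%, these and Hoxa10, Hoxb5 and a long Hoxa3 transcript) against 11%.

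HoxB had the most sites and was also the longest cluster, with 174 kb against 105 in HoxA, 116 in HoxC and 96.8 in HoxD. The HoxB window held 24 of the 54 merged sites, 10 of the 17 line sites and 12 of the 25 primary sites, while HoxA held 12, 1 and 4, HoxC 8, 4 and 4, and HoxD 10, 2 and 5. Between first and last gene the merged sites were 12 in HoxB, 9 in HoxA, 5 in HoxC and 5 in HoxD. Hox sites recurred more often than CTCF sites in general. Of the 54 sites 14 (25.9%) were seen in 1 of the 25 libraries, against 47.1% of all 66618 sites, yet none of the 54 was seen in all 25, as were 2492 sites of the genome. Peaks were denser in the Hox windows than in the rest of the same library, by a mean ratio of 2.29 ± 0.226 (SD, n = 14) in line Pass libraries and 2.51 ± 0.313 (SD, n = 8) in the other primary cells. The ratio was 1.58 in CFUE and 1.27 and 0.318 in ERY. Against the genome within 100 kb of a protein-coding gene the line ratio was 1.65, and between first and last gene alone it was 4.23. GC content was 48.9% to 50% in the clusters and 41.7% in the genome. The part of base composition and gene density in the ratios was not tested.

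**Figure D2:**
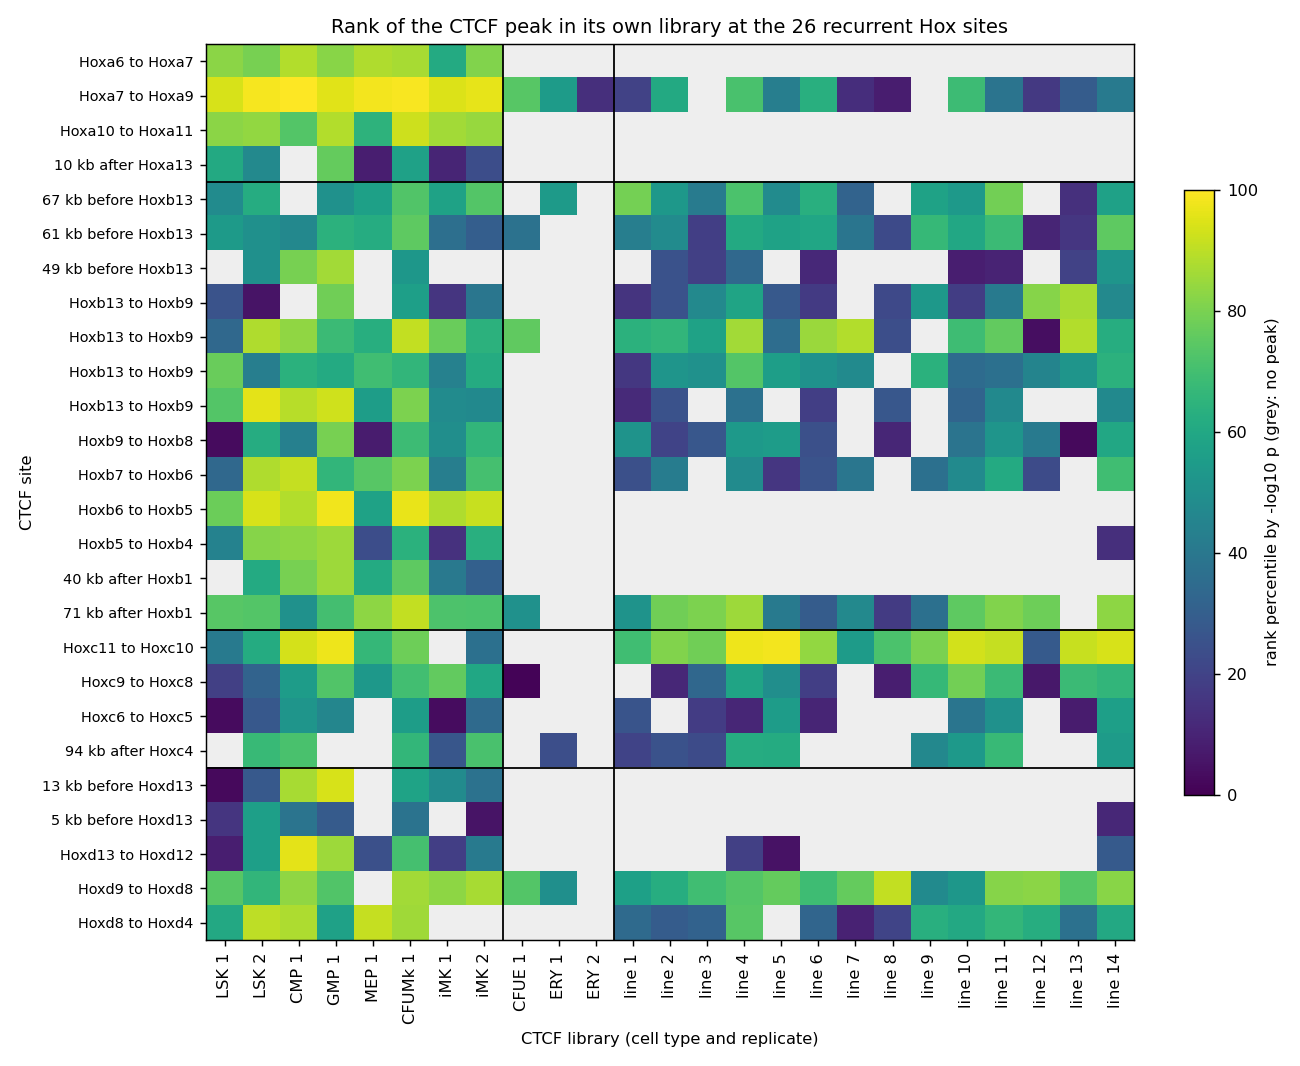
Rank percentile of the CTCF peak at each of the 26 recurrent Hox sites (rows, in cluster order) in each of the 25 line Pass and primary libraries (columns). Colour gives the rank percentile within the library and grey marks no peak. The 3 erythroid columns are mostly grey, and 3 rows in HoxA and HoxB are filled in the 8 other primary columns and grey elsewhere. Sites found in the erythroid libraries alone could not become recurrent.

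In HoxA, the cluster whose posterior genes include the stem cell regulators Hoxa9 and Hoxa10, 3 of 9 merged sites inside the cluster were recurrent. At 1 of them the 8 other primary libraries stood apart from the rest by rank. The other 2 had peaks in these 8 libraries alone. They became recurrent through them, so their separation by presence is partly fixed by the choice of sites. The site between Hoxa7 and Hoxa9 (chr6:52221294-52222311, in a Hoxa7 intron) was the only Hox site with a peak in all 11 primary libraries. Its rank percentile was 94.0 and 98.5 in LSK, 99.7 in CMP, 95.6 in GMP, 98.4 in MEP, 99.0 in CFUMk and 94.7 and 96.1 in iMK. It was 74.1 in CFUE and 55.0 and 13.4 in ERY. In 12 of 14 line Pass libraries it ranged from 8.07 to 71.4, with a median of 39.7. All 8 other primary libraries thus stood above the erythroid and the line libraries, with no overlap. Of the 3508 CTCF sites called in all 11 primary libraries, 470 (13.4%) had every other primary rank above every erythroid rank and 22 (0.627%) had every one below. How many of these sites also stood above every line library was not counted, so the separation from the line has no share beside it. The number of libraries with a peak did not pass the test between primary cells and line, with 11 of 11 against 12 of 14 (Fisher's exact test, two-sided, adjusted p = 0.610). When each list was reduced to its strongest 6629 peaks, the length of the shortest list, it did, with 11 of 11 against 4 of 14 (exact test, adjusted p = 0.0124).

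The other 2 recurrent sites inside HoxA were absent from the line. The site between Hoxa6 and Hoxa7 (chr6:52211242-52212195, in introns of long transcripts of Hoxa3, Gm28308 and Hoxaas3) had rank percentiles of 82.5 and 79.6 in LSK, 88.4 in CMP, 82.3 in GMP, 88.0 in MEP, 86.9 in CFUMk and 61.3 and 81.2 in iMK. The site between Hoxa10 and Hoxa11 (chr6:52240113-52241016, its middle 290 bp from a Hoxa10 start) had 82.8 and 83.8 in LSK, 73.1 in CMP, 88.4 in GMP, 64.7 in MEP, 92.3 in CFUMk and 86.3 and 84.5 in iMK. Neither had a peak in CFUE, in either ERY library, or in any line library of any assessment. All 8 other primary libraries had both peaks, and no other library had either. In the flank of HoxA after Hoxa13 the strongest site by median rank was the one 9843 bp beyond it, in 7 of 8 other primary libraries from 8.59 to 76.4 with a median of 46.9.

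HoxB held the third such site. Between Hoxb6 and Hoxb5 (chr11:96302826-96303715, its middle 242 bp from the Hoxb5 start), the rank percentile was 77.6 and 93.9 in LSK, 88.3 in CMP, 97.7 in GMP, 57.7 in MEP, 96.6 in CFUMk and 87.9 and 91.6 in iMK. No erythroid or line library had a peak there. The 3 sites were set beside their like in the genome. Of the 9825 sites with a peak in all 8 other primary libraries, 521 (5.30%) lacked one in all 3 erythroid primary and all 14 line Pass libraries, against 3 of 14 such Hox sites (21.4%). Their median rank percentiles of 82.4, 84.1 and 89.9 compare with a median of 62.7 over the 518 sites elsewhere with the same pattern. All 3 reached within 1 kb of a protein-coding transcript start, as did 106 of the 518 (20.5%). The groups were formed after these calls had been seen, so these shares are a description.

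**Figure D3:**
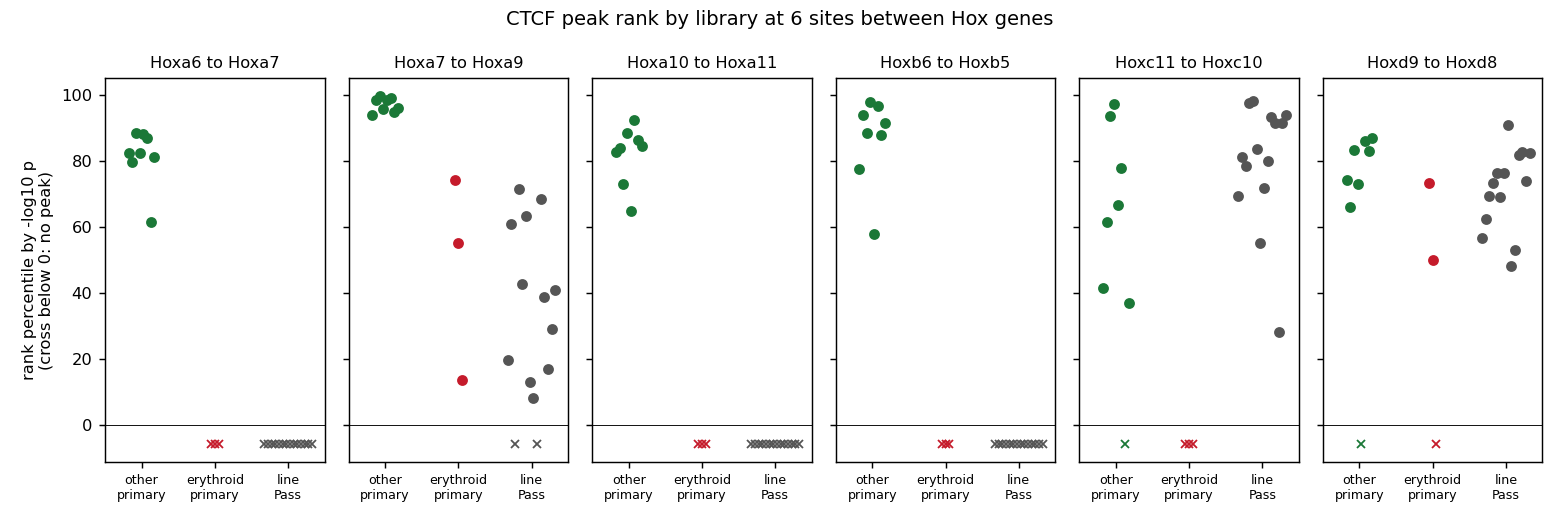
Rank percentile (y axis, 0 to 100) of the CTCF peak in each library at 6 sites between Hox genes, with the libraries grouped on the x axis as other primary (8), erythroid primary (3) and line Pass (14). Points are libraries and crosses mark libraries without a peak. At Hoxa6–Hoxa7, Hoxa10–Hoxa11 and Hoxb6–Hoxb5 only the 8 other primary libraries have points, from 57.7 to 97.7, whereas Hoxc11–Hoxc10 has points in all 14 line libraries and none in erythroid primary cells.

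Over the whole genome, the primary cells and the line differed at 1997 of 66618 merged CTCF sites (Fisher's exact test per site on libraries with and without a peak, two-sided, Benjamini-Hochberg adjusted over all 66618 sites, adjusted p under 0.05), and 1802 of the 66618 (2.70%) were higher in primary cells. In the Hox windows 6 of 54 sites passed (11.1%), all higher in primary cells. The 3 sites above were found in 8 of 11 primary and 0 of 14 line libraries (exact p = 1.53e-04, adjusted p = 0.00895 for each). The other 3 lay in the flanks, in 7 of 11 against 0 of 14 libraries (exact p = 6.86e-04, adjusted p = 0.0247 for each): 9843 bp after Hoxa13 (chr6:52270241-52271206), 39636 bp after Hoxb1 (chr11:96407421-96408364) and 12574 bp before Hoxd13 in an Evx2 exon (chr2:74655266-74656206). Without LSK replicate 2 the 3 flanking sites no longer passed, and the 3 inside the clusters remained (adjusted p = 0.0191). These 3 passed in all 25 runs that left out a library and in the 6 other alternatives tried, with adjusted p from 2.30e-04 to 0.0302. The site between Hoxb5 and Hoxb4 (chr11:96311308-96312213) had a peak in 8 of 11 primary and 1 of 14 line libraries and missed the threshold (exact p = 0.00214, adjusted p = 0.0599).

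The line and the sorted cells also differed in source, in fixation time, in number of cells and in the input used for peak calling. These cannot be told apart from cell type here. Among the strongest 6629 peaks of each list, the sites at Hoxa6–Hoxa7 and Hoxa10–Hoxa11 were present in 7 of 11 primary and 0 of 14 line libraries (exact test, adjusted p = 0.0124 for both) and the Hoxb6–Hoxb5 site in 8 and 0 (adjusted p = 0.00419). None of the 3 flanking sites passed at this length. Without the Low pass CMP and GMP libraries the one after Hoxa13 still passed (exact test, adjusted p = 0.0302), and those after Hoxb1 and before Hoxd13 did not. With peaks of −log10 p of at least 10 alone, only the one after Hoxb1 of the 3 passed. At equal length the Hoxc11–Hoxc10 site passed in the opposite direction, in 3 of 11 primary and 13 of 14 line libraries (adjusted p = 0.0319).

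Of the other 7 recurrent sites inside HoxB, 5 were found in the line and the other primary cells and in no erythroid library, 1 also had a peak in CFUE, and 1 was found in the other primary cells and 1 of 14 line libraries. Between Hoxb13 and Hoxb9, a span of the cluster with no coding Hox gene, 4 sites recurred. At chr11:96234582-96235693 the rank percentile ranged from 33.6 to 90.8 (median 72.7) in 8 of 8 other primary libraries and from 3.55 to 88.4 (median 66.0) in 13 of 14 line libraries, so that the groups overlapped, and CFUE stood at 75.5. At chr11:96239846-96240898 the medians were 62.6 in 8 of 8 other primary and 50.8 in 13 of 14 line libraries, with ranges of 42.6 to 77.2 and 16.3 to 73.3 that overlapped. At chr11:96261298-96262267, in an exon of the noncoding Gm53, the medians were 76.8 (8 of 8, range 47.4 to 95.8) and 29.6 (8 of 14, range 12.1 to 47.5), and the ranges met only at their ends. The fourth, at chr11:96223501-96224524, was the most frequent in the line relative to the other primary cells, in 13 of 14 and 6 of 8 libraries.

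Toward the anterior genes of HoxB, the sites between Hoxb9 and Hoxb8 (chr11:96278499-96279415) and between Hoxb7 and Hoxb6 (chr11:96294163-96295339) were called in 8 of 8 other primary libraries and in 12 and 11 of 14 line libraries. Their median rank percentiles were 55.8 and 72.3 in the other primary cells and 39.5 and 39.2 in the line, with overlapping ranges. Neither had a peak in CFUE or ERY. The last site before the empty anterior stretch lay between Hoxb5 and Hoxb4, the latter a regulator of stem cell expansion. It had 44.5 and 81.9 in LSK, 83.1 in CMP, 85.3 in GMP, 23.6 in MEP, 64.0 in CFUMk and 14.1 and 63.2 in iMK. The single line library with a peak stood at 13.5, close to the 14.1 of iMK replicate 1. Outside the cluster, the site 39636 bp after Hoxb1 ranged from 30.7 to 85.3 (median 61.2) in 7 of 8 other primary libraries. The strongest site on the side of Hoxb1 lay 70694 bp beyond it (chr11:96438374-96439527) and was called in 22 of the 25 libraries, and that at the start of Ttll6, 60586 bp before Hoxb13 (chr11:96133208-96134253), in all 14 line, all 8 other primary and the CFUE libraries. By median rank the strongest site before Hoxb13 was a peak of CFUE alone, at 78.5 (chr11:96132595-96133023).

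In HoxC, all 3 recurrent sites inside the cluster were found in both the line and the other primary cells. The site between Hoxc11 and Hoxc10 (chr15:102966108-102967059, its middle 213 bp from the Hoxc10 start) had a peak in all 14 line Pass libraries, with rank percentiles from 28.2 to 98.1 and a median of 82.4. In the other primary cells it stood at 41.4 and 61.5 in LSK, 93.5 in CMP, 97.3 in GMP, 66.7 in MEP and 77.9 in CFUMk, and in iMK at 37.0 in replicate 2 with no peak in replicate 1. It was absent from CFUE and ERY, while line and other primary ranks overlapped. Between Hoxc9 and Hoxc8 (chr15:102987044-102988087) medians were 57.4 in 8 of 8 other primary and 53.9 in 12 of 14 line libraries, and CFUE had one of its weakest peaks there, at 1.02. Between Hoxc6 and Hoxc5 (chr15:103013191-103014177) they were 34.4 in 7 of 8 and 25.9 in 9 of 14. The strongest site after Hoxc4, 94132 bp beyond it (chr15:103130396-103131572), was called in 15 of the 25 libraries, and no CTCF site was found before Hoxc13.

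In HoxD, whose posterior genes pattern limbs, the site between Hoxd9 and Hoxd8 (chr2:74701729-74702903) was found in cells of every group. Its rank percentile ranged from 48.0 to 91.0 (median 73.5) in 14 of 14 line libraries and from 65.9 to 87.0 (median 83.1) in 7 of 8 other primary libraries, all except MEP. CFUE had 73.2 and ERY replicate 1 49.8, both within the line range. Further toward the anterior end, the site between Hoxd8 and Hoxd4 (chr2:74715449-74716577) stood at 60.5 and 90.2 in LSK, 87.8 in CMP, 57.1 in GMP, 91.4 in MEP and 85.7 in CFUMk. Neither iMK library nor any erythroid one had a peak there, although 13 of 14 line libraries did, at 9.57 to 74.1 with a median of 37.3. At the posterior end, the site between Hoxd13 and Hoxd12 (chr2:74672687-74673660) ranged widely, from 8.21 in LSK replicate 1 to 95.9 in CMP, with 56.6 in LSK replicate 2, 85.3 in GMP, 24.6 in MEP, 70.7 in CFUMk and 18.4 and 41.4 in iMK. It was seen in 3 of 14 line libraries, from 4.76 to 28.2, which overlapped the low end of the primary values. The strongest site before Hoxd13 was the Evx2 site named above, from 2.48 in LSK replicate 1 to 94.1 in GMP, and after Hoxd1 a peak of 1 library at 4.92 (chr2:74781908-74782358).

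Across the 17 recurrent sites inside the clusters, LSK had peaks at 17 and 17, CMP at 16, GMP at 17, MEP at 14, CFUMk at 17 and iMK at 15 and 16. CFUE had 4 and ERY 2 and 1. Line Pass libraries had 7 to 14, line Low pass libraries 5 and 6, and the 7 Fail libraries none. The erythroid primary libraries thus lay below every other primary library and, for all 3, below every line Pass library. Over the whole windows the counts were 22 to 42 Hox peaks in the other primary libraries, 10 to 24 in line Pass libraries, 9 in CFUE and 5 and 1 in ERY.

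The erythroid lists were the shortest of the primary ones, so the count of Hox peaks was set beside list length. The 2 line Low pass lists, of 7078 and 6542 peaks, held 10 and 9 Hox peaks, more than the ERY lists of 8284 and 6629 peaks with 5 and 1. Of the 17 Hox line sites CFUE found 35.3% and the ERY libraries 23.5% and 5.88%, against 45.1%, 44.5% and 37.4% of line sites elsewhere. In the line Low pass libraries these were 52.9% for both in Hox and 47.2% and 45.5% elsewhere. Among the strongest 6629 peaks of each list, the other primary libraries had 7 to 14 Hox peaks (median 9), line Pass libraries 2 to 9 (median 6.50), CFUE 6 and ERY 5 and 1. At equal length CFUE and ERY replicate 1 thus fell within the line range, and ERY replicate 2 stood below the other primary, the line Pass and the line Low pass libraries.

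**Figure D4:**
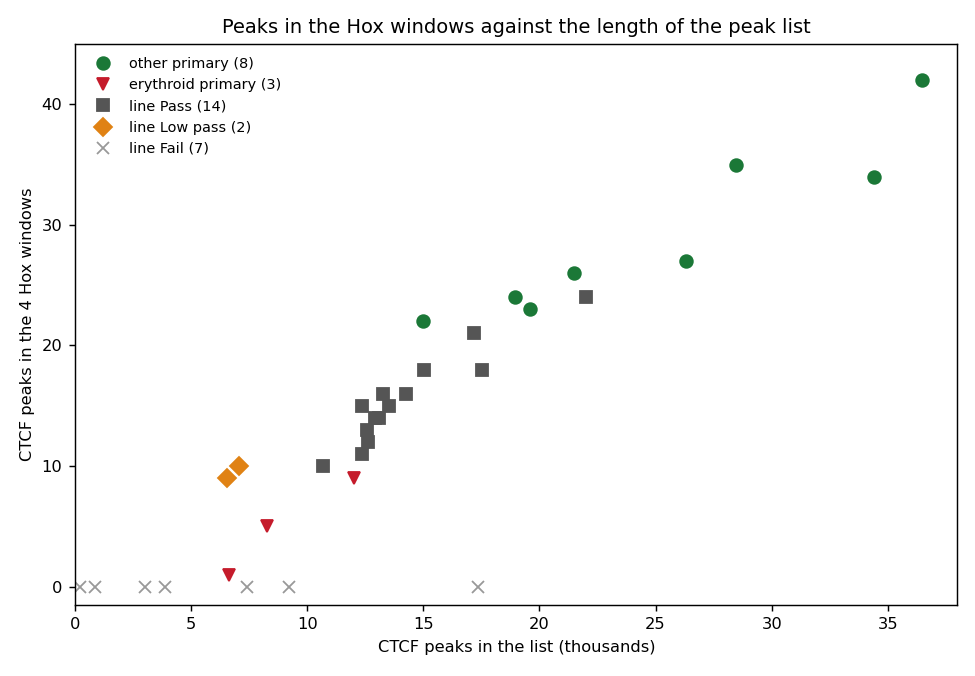
CTCF peaks in the 4 Hox windows (y axis) against all CTCF peaks in the list (x axis), 1 point per library. The 8 other primary libraries (green circles), 14 line Pass (grey squares) and 2 line Low pass libraries (orange diamonds) rise together, the 3 erythroid libraries (red triangles, 9, 5 and 1 Hox peaks) lie below libraries of like length, and the 7 Fail libraries (crosses) are at 0.

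Hox sites missing from the erythroid primary cells were common among those that the other primary cells all had. Of the 14 Hox sites with a peak in all 8 other primary libraries, 9 (64.3%) had none in CFUE or ERY, against 2937 of 9825 such sites in the genome (29.9%). The test of these 8 libraries against the 3 erythroid ones cannot reach the threshold. Its smallest exact p, 0.00606, became 0.137 after adjustment, so that 0 of 66618 sites passed, while 14 of 54 Hox sites and 5251 of the genome had an unadjusted p under 0.05. The Hoxb6–Hoxb5 site stood among the strongest 6629 peaks of all 8 other primary libraries, with a median place of 2094. Of the 1947 sites that were in all 8 and ranked at least as high, 151 (7.76%) lacked a peak in all 3 erythroid libraries. For Hoxa6–Hoxa7 and Hoxa10–Hoxa11, which were within that length in 7 of 8 libraries, the shares were 11.5% and 10.6%. The other 6 were within it in at most 4 of 8 libraries, and for them absence and a short list cannot be told apart.

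With the erythroid primary cells placed beside the line, 9 of 54 Hox sites (16.7%) were higher in the 8 other primary libraries than in these 17, by the same exact test with adjustment over all sites, against 4375 of 66618 (6.57%) in the genome. To the 6 sites above it added Hoxb5–Hoxb4 (8 of 8 against 1 of 17, adjusted p = 6.71e-04), Hoxd13–Hoxd12 (8 of 8 against 3 of 17, adjusted p = 0.00410) and a site 4558 bp before Hoxd13 (chr2:74663332-74664173; 6 of 8 against 1 of 17, adjusted p = 0.0178). This grouping was chosen after the calls had been seen. With lists of equal length 3 of the 9 remained, those at Hoxa6–Hoxa7, Hoxa10–Hoxa11 and Hoxb6–Hoxb5.

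Stem and progenitor cells (LSK, CMP, GMP and MEP, 5 libraries) were compared with committed cells (CFUE, ERY, CFUMk and iMK, 6 libraries), because posterior Hox genes are known to fall silent during maturation. By the same exact test 0 of the 54 Hox sites and 0 of the 66618 sites passed. The unadjusted p was under 0.05 at 1 Hox site and 204 sites of the genome. The Hox site was Hoxd8–Hoxd4, in 5 of 5 progenitor and 1 of 6 committed libraries, CFUMk being the exception (exact p = 0.0152, adjusted p = 1). No site of the genome had a smaller p, and at this number of libraries the adjustment over 66618 sites left none under the threshold. The lack of passing sites is therefore not read as a lack of difference. At the 17 recurrent cluster sites the committed cells did not look like 1 group, with 15 to 17 in CFUMk and iMK and 1 to 4 in CFUE and ERY. The limit on how these sites were chosen applies here too.

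In the line, Hox sites were seen in Pass and, fewer of them, in Low pass libraries. The 7 Fail libraries had no Hox peak, in lists of up to 17343 peaks. They found only 0.0144% to 6.15% of the line sites elsewhere, so this absence is not read as particular to Hox. Between Pass and the 9 Low pass or Fail libraries, 15 of 54 Hox sites (27.8%) passed the exact test, all higher in Pass, against 12285 of 66618 sites (18.4%). CTCF sites were merged from the line Pass and primary libraries, so that a site of Low pass or Fail libraries alone could not enter, and nothing is read from this direction. The 15 Hox sites were all among the 17 line sites. Line sites made up 31.5% of Hox sites and 20.9% of all sites, so the higher Hox share is not read as a Hox trait. The 2 Low pass libraries had peaks at 9 of the 17 line sites each (52.9%), among them Hoxc11–Hoxc10, Hoxd9–Hoxd8 and Hoxb13–Hoxb9 at chr11:96234582-96235693 in both, while Hoxa7–Hoxa9 was in neither.

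TAL1 had few peaks in the Hox windows of the line, at a density not far from that of the rest of the genome. HoxA and HoxD had no TAL1 peak in any library, HoxB had 3 sites and HoxC 3. TAL1 Pass lists of 2670 to 9763 peaks held 0 to 5 Hox peaks. Their density ratio to the rest of the genome was 0.764 ± 0.350 (SD, n = 10), from 0 to 1.17. No Hox promoter had a TAL1 site of the Pass libraries within 1 kb, against 3.04% of other genes. That share is too low for a lack to be read from 39 genes. None of the 39 genes had a TAL1 peak within 10 kb in at least 50% of Pass libraries, against 16.5% of all genes. The 9 Low pass or Fail libraries, with 204 to 2751 peaks, had none in the windows.

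The 3 TAL1 sites seen in at least 2 libraries all lay outside the clusters, on the anterior side. The site 28972 bp after Hoxb1 (chr11:96396804-96397652, intergenic) was called in 8 of 10 Pass libraries, with rank percentiles from 11.7 to 67.2 and a median of 36.4. A second one, 31962 bp after Hoxb1 (chr11:96399788-96400649, intergenic), was called in 4 of 10, at 10.7, 41.1, 47.3 and 61.9. The third lay 60341 bp after Hoxc4 in the noncoding gene Gm28876 (chr15:103096677-103097709) and was called in 6 of 10, from 10.0 to 74.1 with a median of 52.8. Against the 9 Low pass or Fail libraries, all with none, the first passed the exact test (p = 7.14e-04, adjusted p = 0.00850), as did the one after Hoxc4 (exact p = 0.0108, adjusted p = 0.0437), and the second did not (exact p = 0.0867, adjusted p = 0.209). Of all 13153 TAL1 sites 3259 (24.8%) passed in the same direction. The site after Hoxc4 was lost when any of 17 of the 19 libraries was left out, the exceptions being Pass replicate 9 and Low pass replicate 1. The first site remained in all 19 runs. The nearest CTCF site to the HoxB pair was that 39636 bp after Hoxb1, 10665 and 7674 bp away from middle to middle, which was itself absent from the line.

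TAL1 binds E-box letters such as CAGCTG and often stands beside the GATA letters AGATAA, and both were searched on both strands in the 3 sites. The match nearest the middle of each site is printed with the searched letters in capitals and 11 bases on each side.
After Hoxb1, first site, chr11:96397170-96397197, plus strand: aactctctgtcCAGCTGagaggccccag
After Hoxb1, first site, chr11:96397333-96397360, minus strand: aagagaggctgAGATAAatgaagtatcc
After Hoxb1, second site, chr11:96400156-96400183, plus strand: agcgctcagagCAGCTGactctgtggac
After Hoxb1, second site, chr11:96400224-96400251, plus strand: gcgccggcttcAGATAAactgtcgccac
After Hoxc4, chr15:103097274-103097301, plus strand: atcaacttgtaCAGCTGaagttgttcct
CAGCTG was found in all 3 sites, against 48.3% of the 8722 TAL1 sites elsewhere called in at least 2 libraries and 37.5% of windows 10 kb away. AGATAA was found in both HoxB sites and not after Hoxc4, against 70.0% and 40.8%. The composite letters CTGNNNNNNNNAGATAA, which overlap with AGATAA, were in none of the 3, against 11.5% of TAL1 sites elsewhere and 1.28% of windows 10 kb away.

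Genes of Hox cofactors and regulators lie outside the clusters. Of the 16 listed (the MEIS, PBX and PKNOX partners that bind DNA with Hox proteins, the activators Kmt2a and Men1, the Polycomb genes Bmi1 and Ezh2, and the Cdx genes), 8 had a CTCF peak in or within 10 kb of the gene in at least 50% of line Pass libraries, 10 in at least 50% of primary libraries and 2 had TAL1 in at least 50% of TAL1 Pass libraries. The shares of all protein-coding genes were 44.1%, 50.8% and 16.5%, so that the counts were near the background. Meis1, a partner of Hoxa9 in stem cells, had CTCF in 13 of 14 line and 8 of 8 other primary libraries and in none of the 3 erythroid ones, and TAL1 in 7 of 10. Ezh2, the methyltransferase that silences Hox genes, had TAL1 in 10 of 10 libraries and CTCF in 1 of 14 line and 0 of 11 primary libraries. Kmt2a and Men1, which keep Hox genes active, had CTCF in 14 of 14 line and 10 of 11 primary libraries.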

How the data were processed

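CTCF and TAL1 ChIP-seq libraries of the G1E-ER4+E2 line and CTCF libraries of sorted mouse bone marrow cells were used as 53 peak lists. 12 input samples were not analysed here. The authors mapped reads to mm10 with Bowtie (1.0.0 by the submitters' processing notes, which also list bcl2fastq 1.8.4), removed mitochondrial, unplaced and unmapped reads, and called peaks of each library with MACS, for most line libraries against a composite input of the line and for primary cells against inputs of their own cell type. The deposited lists give for each peak the fold enrichment over background (a ratio) and the −log10 of the p-value, never below 5.00. Their FDR column was not used. Fold enrichment and −log10 p depend on depth, which the lists do not give, so they served to rank peaks within a library, and the number of libraries sets the precision.

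Peaks of the 14 line Pass and 11 primary CTCF libraries, and those of all TAL1 libraries, were each merged at 1 bp of overlap, and a library called a site when a peak of it overlapped the site by at least 1 bp. Genes, exons and starts were those of GENCODE M21 (basic), and a start was assigned to a site within 1 kb. Groups of libraries were compared site by site with Fisher's exact test, two-sided, adjusted by Benjamini-Hochberg over all merged sites of the genome, at 0.05. With 2 lists compared, at most 0.165% of intervals were identical, so no library was counted as a repeat. The test was checked on simulated calls. Of 100 sites set at 98% against 2% of libraries, it called 100 for primary cells against line and 0 for progenitor against committed cells. It called 95 for line Pass against Low pass or Fail and 92 for the same TAL1 comparison. Of 100 sites set at 70% against 30% it called 0 in each, so moderate differences could not be found. The CTCF motif was learned from the middle 200 bases of the 2000 strongest peaks of an LSK library outside the Hox windows. Named were all Hox genes, every recurrent CTCF site between the first and last gene of a cluster, every Hox site past a test, TAL1 sites seen in at least 2 libraries, and the strongest flanking site on each side by median rank; other sites named were chosen after their values were seen. The members and gene lists were chosen with earlier results of these data known. Alternatives were a −log10 p of at least 10, overlap of 50% of the shorter interval, sites in 80% of libraries, windows without flanks, lists of equal length, and leaving out libraries. Python 3.11.15, numpy 2.4.6, scipy 1.17.1 and matplotlib 3.10.9 were used. Results on 2 of the genes are not reported here.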

Additional observations from a re-analysis of the deposited data

How the results depend on the processing

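Of 201 alternative values 164 did not move by more than the spread between libraries or, for counts, by more than 1.5 times. The motif share was instead judged by its Wilson interval. The unmoved values include the comparisons of progenitor with committed and of other primary with erythroid primary cells, which gave 0 throughout. With a −log10 p of at least 10, line sites fell from 17 to 8, primary sites from 25 to 16, the line density ratio from 2.29 to 2.05, Hox sites past the test of Pass against Low pass or Fail from 15 to 7 and of TAL1 from 2 to 0, and the 9 sites in all 8 other primary and no erythroid library to 4. In at least 80% of libraries, primary sites were 6. Without flanks the density ratio was 4.23 in the line and 3.62 in primary cells (2.11 with flanks), 3 sites passed between primary cells and line, 5 between the other primary cells and the 17 erythroid and line libraries, and TAL1 sites and TAL1 calls were 0 and 0. With lists of equal length the line ratio was 1.98, the latter comparison gave 3 sites and the 9 sites became 1; against the genome near genes the line ratio was 1.65. Without the library whose antibody label names CTCF, 1 TAL1 site passed. With a core consensus of at most 2 mismatches, 96.2% of recurrent Hox sites matched, as did 92.3% of windows 10 kb away.

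Leaving out each library in turn gave 3 to 7 sites for primary cells against line, 14 to 15 for Pass against Low pass or Fail, 8 to 10 for the other primary cells against the 17, 1 to 2 for TAL1, 17 line sites and 25 primary sites each time, and 0 for the other 2 comparisons. No paired analysis was possible because the labels carry no replicate numbers. Each primary type had 1 or 2 libraries, CMP and GMP were Low pass, and depth is unknown.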

Other observations

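In the flank of HoxB, a site in an exon of Calcoco2, 94144 bp before Hoxb13 (chr11:96099809-96100535), had peaks in CFUE and ERY replicate 1, at rank percentiles of 92.5 and 46.6, in 2 of 8 other primary libraries at 20 and 66.1, and in none of the 14 line Pass libraries. The erythroid and the other primary libraries did not pass the test there (exact p = 0.491, adjusted p = 1). In the genome 4 sites were called in all 3 erythroid and none of the 8 other primary libraries, and none of them lay in a Hox window.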
